A study of Rattus norvegicus with 36 samples.

Results

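Endothelial cells line the blood vessels, and the report follows 10 genes that mark them: Tek, Tie1, Eng, Emcn, Esam, Pecam1, Cdh5, Kdr, Flt1 and Vwf. A gene was included where a probe set of the array carried its symbol and no other. Of the 31099 probe sets on the array, 12 carried a member symbol, and they represented 9 of the 10 genes. Flt1 had 3 probe sets, Kdr had 2 and the other 7 genes had 1 each, and Cdh5 was not analysed here. Of the 9 genes measured, 8 were lower in rat mammary cancers than in normal mammary tissue and 1, Flt1, did not pass the test in either direction. In the same comparison, 16.3% of all genes tested were called lower and 18.0% higher.

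The arrays came from female Sprague-Dawley rats and comprised 33 mammary cancers and 3 samples of normal mammary tissue. All treatments were given at 7 weeks of age, and from 9 weeks all rats were kept on feed holding 23.5% corn oil, so normal tissue and cancers share the diet as far as the labels say. Spontaneous cancers (n = 3) and the normal tissue (n = 3) were from rats left untreated. Radiation cancers (n = 4) followed 1 Gy of whole-body gamma rays. Cancers after the alkylating agent MNU, injected at 40 mg/kg, were divided by H-ras status into mutated (n = 5) and nonmutated (n = 4). Cancers after PhIP, a mutagen formed in cooked meat and given by gavage at 40 mg/kg per day on 5 days a week for 2 weeks, comprised 1 H-ras mutated and 3 nonmutated cancers. In the combined groups the chemical followed 1 Gy of radiation after 3 days. Radiation plus MNU gave 5 mutated and 4 nonmutated cancers, and radiation plus PhIP gave 4 nonmutated cancers. Spontaneous and radiation cancers were all labelled nonmutated. The labels do not give the age at sampling, which H-ras mutation was found, or whether each cancer came from a different rat, so the p-values measure the spread between these samples, which may be technical in part.

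The members play different parts in the vessel wall. Tek (also called Tie2) is the receptor for the angiopoietins and Tie1 is its partner receptor. Kdr (VEGF receptor 2) carries the main growth signal of VEGF, whereas Flt1 (VEGF receptor 1) binds VEGF tightly, signals weakly and also exists as a soluble form that traps the ligand. Eng (endoglin) is a co-receptor for ligands of the TGF-beta and BMP family. Pecam1, Esam and Cdh5 are adhesion molecules of endothelial junctions, Emcn (endomucin) is a surface sialomucin of capillaries and veins, and Vwf is the clotting protein stored in endothelial granules. In a whole tissue, fewer endothelial cells and less RNA per endothelial cell cannot be told apart.

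Promoter sequences were taken from RefSeq (build GRCr8), whose table held 5 of the 10 members: Emcn, Eng, Flt1, Kdr and Tie1. The 250 bases before the annotated start are printed 5′ to 3′ on the gene's strand for 4 of them: the VEGF receptor pair Kdr and Flt1, of which Kdr was called lower in the cancers and Flt1 was not, and Tie1 and Emcn, which were both lower in the cancers. Capitals mark AGGAAG, which holds the GGAA core bound by ETS factors, or its reverse complement CTTCCT, and the TATA box TATAAA. The windows are chr2:228564289-228564538 (plus strand), chr5:137304982-137305231 (minus strand), chr14:32571813-32572062 (plus strand) and chr12:12333180-12333429 (plus strand).
Emcn: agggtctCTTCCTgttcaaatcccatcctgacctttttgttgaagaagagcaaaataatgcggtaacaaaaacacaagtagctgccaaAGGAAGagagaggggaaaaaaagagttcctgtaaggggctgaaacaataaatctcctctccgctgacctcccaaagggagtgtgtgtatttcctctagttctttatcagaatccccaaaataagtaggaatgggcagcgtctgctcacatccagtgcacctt
Tie1: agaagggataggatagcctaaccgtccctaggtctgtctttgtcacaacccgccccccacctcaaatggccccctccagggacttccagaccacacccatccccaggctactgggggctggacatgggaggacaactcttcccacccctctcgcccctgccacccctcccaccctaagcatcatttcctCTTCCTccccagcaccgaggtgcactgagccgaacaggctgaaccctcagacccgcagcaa
Kdr: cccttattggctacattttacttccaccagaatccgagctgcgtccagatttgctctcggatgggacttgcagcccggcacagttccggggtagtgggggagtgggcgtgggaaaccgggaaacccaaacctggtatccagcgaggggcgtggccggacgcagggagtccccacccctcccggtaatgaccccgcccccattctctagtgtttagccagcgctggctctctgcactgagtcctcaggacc
Flt1: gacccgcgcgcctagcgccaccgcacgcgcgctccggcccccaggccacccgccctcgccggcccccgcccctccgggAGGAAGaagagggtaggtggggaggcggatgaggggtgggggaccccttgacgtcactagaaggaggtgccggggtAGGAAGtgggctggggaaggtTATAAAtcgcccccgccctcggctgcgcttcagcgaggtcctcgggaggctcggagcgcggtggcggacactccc
On either strand, AGGAAG was found in 4 of the 5 member promoters (all but Kdr) and in 29.5% of 33469 RefSeq promoters of the same length. Emcn and Flt1 each held 2 copies in these windows, and Tie1 held 1. TATAAA was found in 1 of the 5, Flt1, and in 12.9% of all promoters. The longer ETS sites ACCGGAAG and CAGGAAGT, the second of which contains AGGAAG, the GATA site AGATAA and the hypoxia element ACGTG were in none of the 5 (2.02%, 2.48%, 10.3% and 16.6% of all promoters). These letter matches are descriptions of the windows and not binding sites.

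The first comparison asked how the markers differ between cancers and normal tissue. Values are intensities on a linear scale, scaled by array in the deposited table, and differences are on the log2 scale after adding a constant of 42.8, which makes the change of dim genes appear smaller. Tests are from limma over 11772 genes with Benjamini-Hochberg adjustment and a threshold of 0.05. Over all genes tested, 16.3% were called lower and 18.0% higher in the cancers, and the median difference was 0.02. Of the 9 members, 8 were called lower and 0 higher, with a median difference of -1.03. The members were chosen with earlier results of these data known, so their count beside these shares is not independent support. As a measure of RNA quality, the mean log2 ratio of 3′ to 5′ signal of the control genes, higher where RNA is more degraded, was 0.792, 0.607 and 0.774 in normal tissue 1, 2 and 3. In the cancers it ran from 0.33 to 1.664 with a median of 0.553, and 25 of 33 cancers were below all normal tissues and 2 above them. With this ratio as a covariate, 7 members were called lower in limma and 0 higher. The call of Vwf was lost (-0.60, adjusted p = 0.0574), and Flt1 differed by 0.33 (adjusted p = 0.46). Tek differed by -1.61, Emcn by -1.41, Pecam1 by -0.89 and Kdr by -0.86. The ratio of 1.664 was that of MNU nonmutated 4, and the next highest was 0.901 in MNU mutated 1. The part of that single array in the values with the covariate was not tested. The panels of log2 level by array show each member in turn.

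**Figure D1:**
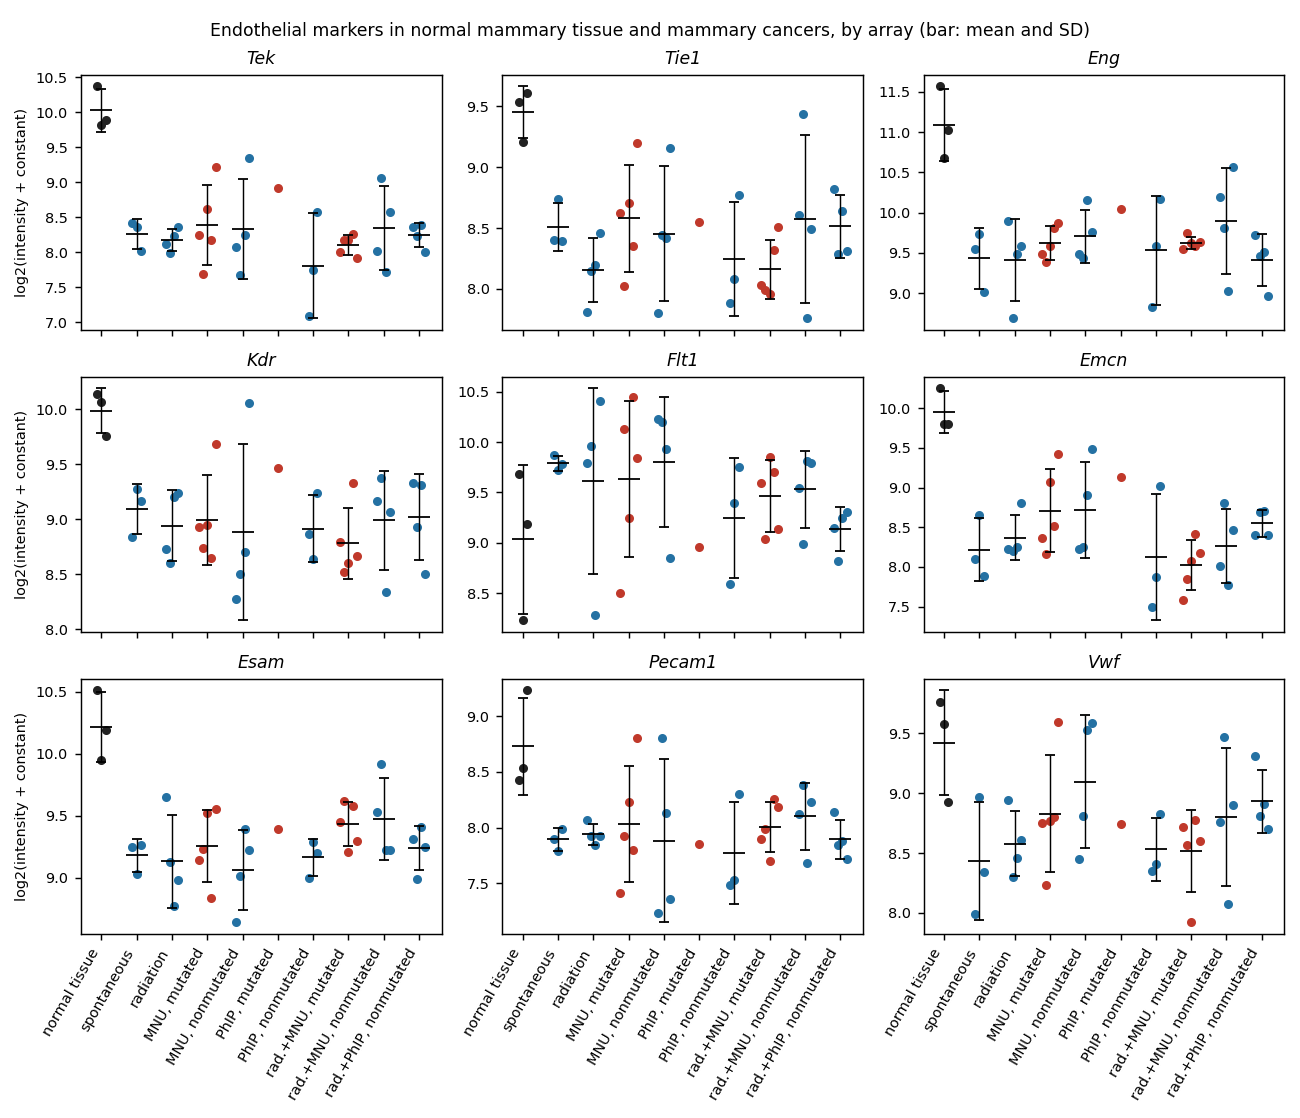
Each panel plots the log2 level of 1 endothelial marker, as log2(intensity + 42.8), on every array by group. Points are arrays (black, normal tissue; red, H-ras mutated cancers; blue, nonmutated cancers), and bars are the group mean and SD. For Tek, Eng, Emcn and Esam all 33 cancers lay below the 3 normal tissues, whereas Flt1 overlapped.

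Among the angiopoietin receptors, Tek had intensities of 1284.5, 862.4 and 900.9 in normal tissue 1, 2 and 3. In the cancers it ran from 93.1 to 605.0 with a median of 257.2. All 33 cancers were below every normal tissue. Its change, a fold of 0.29 on the scale with the added constant, had a 95% interval of -2.33 to -1.24 in log2 units and an adjusted p of 8.7e-06 (limma). Tie1 had intensities of 700.3, 551.3 and 740.7 in normal tissue and from 173.6 to 650.9 (median 294.4) in the cancers. A single cancer, radiation plus MNU nonmutated 2, reached the normal range and the other 32 were below it. Tie1 fell by 1.05 ± 0.24 (SE) on the log2 scale (limma, adjusted p = 0.00115).

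Eng had the highest normal intensity in normal tissue 1, at 3005.8, with 1598.7 and 2039.4 in normal tissue 2 and 3. In the cancers it ran from 369.7 to 1466.0 with a median of 725.0. The groups did not overlap, and the cancer value was 0.356 of normal on the scale with the added constant (95% interval -1.98 to -0.99 in log2 units; limma, adjusted p = 2.69e-05). Eng works with the receptor Acvrl1, 1 of the other endothelial genes measured. Acvrl1 was also lower, at 7.30 in mean log2 level in the cancers against 8.47 in normal tissue (limma, log2 difference -1.17 ± 0.18 SE, adjusted p = 1.68e-05).

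Of the VEGF receptors, Kdr was called lower and Flt1 was not; the difference between the 2 was not tested. Kdr had intensities of 1083.2, 1030.5 and 825.9 in normal tissue and from 267.1 to 1023.6 (median 445.6) in the cancers. Of the 33 cancers, 32 were below all normal tissues, and the exception was MNU nonmutated 4. Kdr fell by 1.03 ± 0.25 (SE) on the log2 scale (limma, adjusted p = 0.0021). A second probe set of Kdr, 1397868_at, was too dim for the test, with intensities of at most 83.0 on any array.

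Flt1, read from its brightest probe set 1377113_at, had intensities of 778.9, 256.7 and 539.9 in normal tissue and from 268.8 to 1351.9 (median 787.2) in the cancers. By this probe set, the cancers overlapped the normal range in 16 of 33 cases and lay above it in the other 17, and none lay below. The log2 difference was 0.48 ± 0.34 (SE), with a 95% interval of -0.22 to 1.17 (limma, adjusted p = 0.285). Without normal tissue 2, which had the lowest value, the difference was 0.08. Tested probe set by probe set, where 13.1% of 21947 probe sets were called lower, 8 of the 11 member probe sets bright enough to test were lower. The 3 that were not are those of Flt1. They gave log2 differences of 0.48 (1377113_at, adjusted p = 0.297), 0.25 (1370492_a_at, adjusted p = 0.533) and -0.21 (1369087_at, adjusted p = 0.522) in limma. Their signs disagree, although across the 33 cancers they moved together, with Pearson r of 0.60 to 0.82 between pairs. For 1369087_at, 21 of the 33 cancers were below all normal tissues and 9 above them. For 1370492_a_at, 2 were below all normal tissues and 14 above them. The Flt1 transcripts that each probe set reads were not analysed here.

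**Figure D2:**
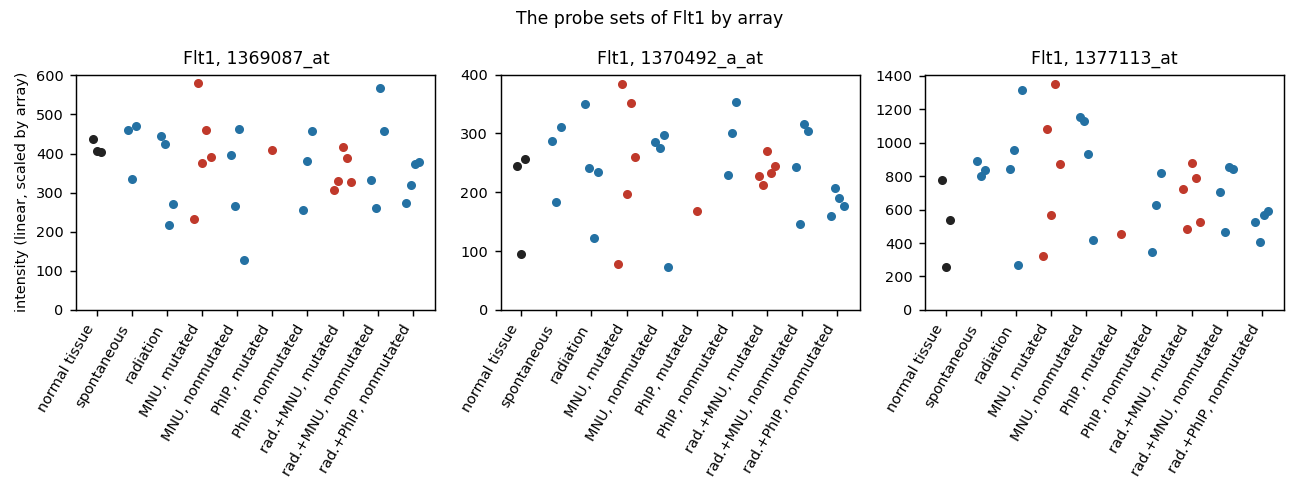
The 3 panels plot the linear intensity of each Flt1 probe set on every array by group (black, normal tissue; red, H-ras mutated; blue, nonmutated). Normal tissue 2 was the lowest of the 3 normal tissues for 1377113_at and 1370492_a_at. For 1369087_at the cancers spread to both sides of normal tissue, 21 below all 3 and 9 above.

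Among the junction and surface molecules, Emcn had intensities of 1176.9, 851.1 and 847.8 in normal tissue and from 137.0 to 672.1 (median 289.2) in the cancers. Esam had 1410.8, 947.2 and 1129.2 in normal tissue and from 356.6 to 928.8 (median 566.5) in the cancers. For both, all 33 cancers were below all 3 normal tissues, and limma gave adjusted p-values of 4.15e-05 for Emcn and 3.4e-05 for Esam. In folds on the scale with the added constant, the cancers stood at 0.343 (Emcn) and 0.515 (Esam) of normal tissue.

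Pecam1, the adhesion molecule most used to stain vessels, had intensities of 302.6, 326.2 and 558.2 in normal tissue and from 107.7 to 403.2 (median 199.0) in the cancers. It was below all normal tissues in 31 of 33 cancers. Pecam1 fell by 0.78 ± 0.23 (SE) on the log2 scale (limma, adjusted p = 0.01). Without normal tissue 3, the brightest for this gene, the difference was -0.53 and did not pass (limma, adjusted p = 0.162).

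Vwf, the clotting protein, had intensities of 823.0, 723.9 and 443.9 in normal tissue and from 199.2 to 732.8 (median 387.8) in the cancers. It was below all normal tissues in 26 of 33 cancers, and the other 7 lay within the normal range. Vwf fell by 0.70 ± 0.25 (SE) on the log2 scale (limma, adjusted p = 0.0309). The call was lost without normal tissue 1 (-0.53, adjusted p = 0.196 in limma) or normal tissue 2 (-0.62, adjusted p = 0.144). It was also lost with array weights (-0.71, adjusted p = 0.0579) and with the 3′ to 5′ signal ratio as a covariate (-0.60, adjusted p = 0.0574).

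The sizes of these changes were set against that of Pecam1, by taking the log2 difference between a member and Pecam1 on each array. An exact two-sided permutation test over all 7140 arrangements of 3 among 36 arrays was adjusted over the 8 members tested. Levels of different probe sets are not comparable, so only the change of this difference is read. For Tek minus Pecam1 it was 1.30 ± 0.65 (SD, n = 3) in normal tissue and 0.29 ± 0.50 (SD, n = 33) in the cancers, a further loss of -1.0 relative to Pecam1 (exact permutation adjusted p = 0.0235). For Flt1 minus Pecam1 it was 0.30 ± 0.83 (SD, n = 3) in normal tissue and 1.56 ± 0.58 (SD, n = 33) in the cancers, a gain of 1.26 (exact permutation adjusted p = 0.0168). This Flt1 value is from probe set 1377113_at alone, whose log2 difference from normal tissue was 0.48 and was not called. Pecam1 itself differed by -0.78, so a gene with no change of its own would also gain against it. The gain is therefore not a rise of Flt1, and the share of all genes that would pass this test was not computed. Flt1 probe sets 1370492_a_at and 1369087_at, with differences of 0.25 and -0.21, were not set singly against Pecam1. Eng (-0.71) and Emcn (-0.76) both had an exact permutation adjusted p of 0.0501 and did not pass. They passed in 18 (Eng) and 15 (Emcn) of 40 alternatives, among them without normal tissue 3 (-0.99 and -1.09, exact permutation adjusted p = 0.0269 each). Without normal tissue 1 the values were -0.32 for Eng and -0.46 for Emcn (exact permutation adjusted p = 0.516 and 0.424). Tie1 (-0.27), Esam (-0.18), Kdr (-0.25) and Vwf (0.09) had exact permutation adjusted p-values of 0.412 to 0.754. Both calls rest on the 3 normal tissues. The Tek call was lost without normal tissue 1 (-0.68, exact permutation adjusted p = 0.403) and without normal tissue 2 (-1.0, adjusted p = 0.108). That of Flt1 was lost without normal tissue 2 (0.96, exact permutation adjusted p = 0.108) and without normal tissue 3 (1.09, adjusted p = 0.0605).

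The next comparison set each of the 8 replicated cancer groups against the same 3 normal tissues, so the 8 results are not independent. Of the 72 pairs of a member and a group, 52 were called lower in limma, and none was called higher. Over all genes, 8.26% to 13.9% were called lower in these groups. Tek, Tie1, Eng, Emcn and Esam were called lower in all 8 groups. Tek differed by -2.22 (PhIP nonmutated) to -1.64 (MNU mutated), and Emcn by -1.93 (radiation plus MNU mutated) to -1.23 (MNU nonmutated). Kdr was called in 7 groups and missed the threshold in the spontaneous cancers (-0.89, limma adjusted p = 0.0533). Pecam1 was called in 3 groups, MNU nonmutated, PhIP nonmutated and radiation plus PhIP. Its differences in all 8 ran from -0.96 to -0.63. Vwf was called in 2, the spontaneous (-0.99) and radiation plus MNU mutated cancers (-0.90), and its difference in MNU nonmutated cancers was -0.33. Flt1 had differences of 0.10 to 0.77 and was called in none.

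Counted by group, 6 of the 9 members were lower in spontaneous cancers (10.5% of all genes were called lower there), 6 in radiation (10.3%), 6 in MNU mutated (13.9%) and 7 in MNU nonmutated cancers (10.7%). The counts were 7 in PhIP nonmutated (11.3%), 7 in radiation plus MNU mutated (12.8%), 6 in radiation plus MNU nonmutated (8.26%) and 7 in radiation plus PhIP cancers (11.3%). The members' median difference lay between -1.21 (radiation plus MNU mutated) and -0.88 (radiation plus MNU nonmutated). The median over all genes in these 8 comparisons was between 0 and 0.04. Some of the counts rest on 1 array. In radiation plus MNU nonmutated cancers the count was 2 without normal tissue 1, and in PhIP nonmutated cancers it was 4 without replicate 2. In radiation plus PhIP cancers it was 4 without replicate 2 or without replicate 4.

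**Figure D3:**
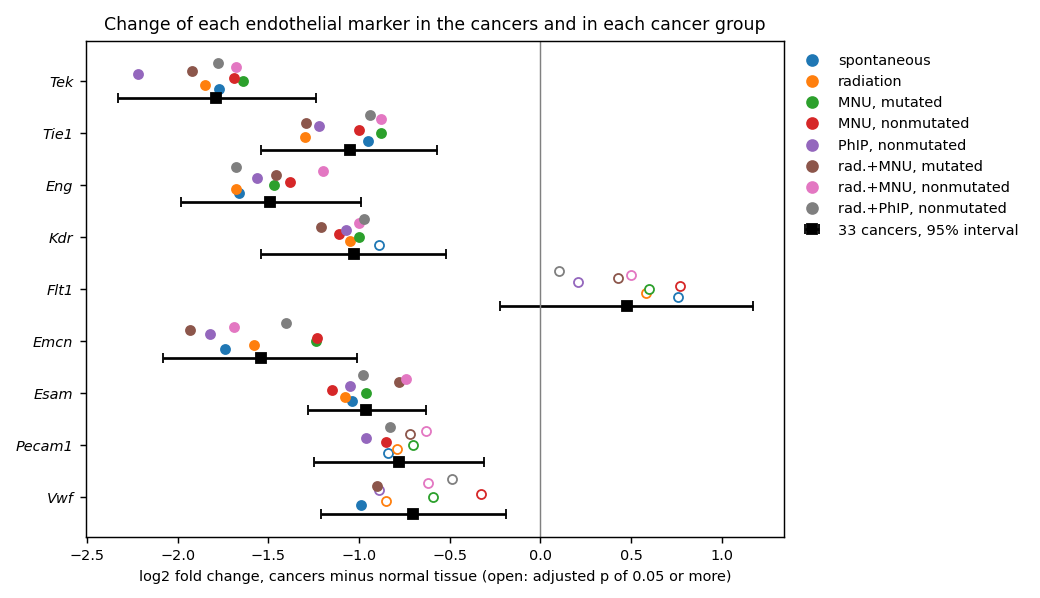
Log2 fold change of each marker against normal tissue, for the 33 cancers together (black squares, bars are 95% intervals from limma) and for each of the 8 replicated cancer groups (circles, filled where the adjusted p was under 0.05). Flt1 is the only marker to the right of 0, with every circle open, and Tek lies farthest to the left.

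The third question was whether the markers depend on the cause of the cancer. An F test in limma over the 6 nonmutated cancer groups called 0 of the 9 members, against 0.00849% of all genes (1 gene). At an unadjusted p under 0.05 it marked 0 members and 1042 of the 11772 genes. The smallest unadjusted p-values among the members belonged to Vwf (0.26), Esam (0.363) and Emcn (0.452), with adjusted p-values from limma of 0.737 to 0.835. Mean log2 levels of Vwf were ordered as 8.43 ± 0.50 in spontaneous (SD, n = 3), 8.53 ± 0.26 in PhIP (n = 3), 8.58 ± 0.27 in radiation (n = 4), 8.80 ± 0.58 in radiation plus MNU (n = 4), 8.93 ± 0.27 in radiation plus PhIP (n = 4) and 9.09 ± 0.56 in MNU cancers (n = 4), all nonmutated. Normal tissue was at 9.42 ± 0.44 (SD, n = 3). The ends of this order, MNU nonmutated against spontaneous, differed by 0.66 ± 0.32 (SE), which did not pass (limma, adjusted p = 0.576).

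Tek, the member with the largest change from normal, averaged 7.81 ± 0.75 (SD, n = 3) in PhIP nonmutated cancers. It reached 8.17 ± 0.15 in radiation (n = 4), 8.24 ± 0.18 in radiation plus PhIP (n = 4) and 8.26 ± 0.22 in spontaneous cancers (n = 3). The nonmutated cancers after MNU (8.34 ± 0.71, n = 4) and after radiation plus MNU (8.34 ± 0.60, n = 4) were the highest of the nonmutated groups. Normal tissue was at 10.03 ± 0.30 (SD, n = 3). Flt1 ran from 9.13 ± 0.22 (SD, n = 4) in radiation plus PhIP to 9.80 ± 0.65 (n = 4) in MNU nonmutated cancers, with normal tissue at 9.03 ± 0.74 (n = 3). When the 8 replicated cancer groups were ordered by mean, no member had neighbours in the order that differed by more than the larger of their SDs. Ordering by mean itself makes gaps between neighbours small, so this describes the order and does not show that the groups are alike. The widest gap between neighbours was 0.30, for Tek. The single PhIP cancer with an H-ras mutation, which has no replicate, had log2 levels of 8.92 for Tek, 9.13 for Emcn, 8.55 for Tie1 and 8.96 for Flt1.

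By H-ras status, averaged with equal weight over cancers after MNU alone and after radiation plus MNU (10 mutated, 8 nonmutated), limma called 0 members and 0% of all genes. At an unadjusted p under 0.05 there were 0 members and 886 genes. The members' differences, mutated minus nonmutated, ran from -0.27 ± 0.20 (SE) for Vwf to 0.08 ± 0.13 for Esam. The 3 members with the smallest unadjusted p were Vwf (0.176), Eng (0.358) and Tie1 (0.447), all with adjusted p-values from limma of 0.791 or more. The widest interval was that of Flt1, -0.67 to 0.43 at 95%, and the narrowest was that of Esam, -0.18 to 0.33. The H-ras difference after radiation plus MNU was not shown to differ from that after MNU for any member (limma interaction, 0 called; 0 members and 391 genes at an unadjusted p under 0.05).

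Radiation against no radiation, averaged over 4 matched pairs of groups, also called 0 members and 0% of all genes in limma (0 members and 1166 genes at an unadjusted p under 0.05). The members' differences ran from -0.18 ± 0.20 (SE) for Flt1 to 0.15 ± 0.09 for Esam. The smallest unadjusted p-values were those of Esam (0.117), Emcn (0.372) and Flt1 (0.373). Within single pairs, Emcn was at 8.03 ± 0.32 (SD, n = 5) in H-ras mutated cancers after radiation plus MNU and at 8.71 ± 0.52 (n = 5) in those after MNU alone. That difference of -0.68 ± 0.27 (SE) did not pass (limma, adjusted p = 0.791), nor did a higher Esam in nonmutated cancers after radiation plus MNU than after MNU (0.41 ± 0.19, adjusted p = 0.617).

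Levels also varied between cancers of the same group. MNU mutated 5 was among the 5 highest of the 33 cancers for 7 of the 8 members other than Flt1, radiation plus MNU nonmutated 2 for 6, and MNU nonmutated 4 for 5. Radiation plus MNU nonmutated 3 was among the 5 lowest for 6 members, and PhIP nonmutated 2 for 5. Within the radiation plus MNU nonmutated group, Tie1 had an intensity of 650.9 in replicate 2 and 173.6 in replicate 3, and Vwf had 665.9 and 225.8. Flt1 took the opposite order in these 2 cancers, at 466.5 and 855.0.

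MNU nonmutated 4 held the highest cancer value of Tek (605.0), Emcn (672.1) and Kdr (1023.6), but a Pecam1 of 121.0, among the 5 lowest. This array also had the lowest median intensity (161.4, against up to 222.7) and a 3′ to 5′ ratio of the hexokinase control of 12.25, the highest of all arrays. The part of RNA quality in its levels was not tested. Without this array, limma still called the same 8 members lower. Tek then differed by -1.82, Kdr by -1.06 and Pecam1 by -0.76.

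How far the members vary together was asked across the 33 cancers. Pearson and Spearman correlations of log2 levels were computed for all 36 pairs, with two-sided permutation tests of 100000 resamples and adjustment over the pairs. By Pearson, 16 pairs passed, all among the 28 pairs without Flt1, whose median r was 0.45 and lowest 0.13. By Spearman, 21 of the 36 passed. Over all pairs of genes on the array the median r was 0.0, and the share of them that would pass the same test was not computed. The 8 pairs with Flt1 had a median r of -0.14 and none passed by Pearson.

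**Figure D4:**
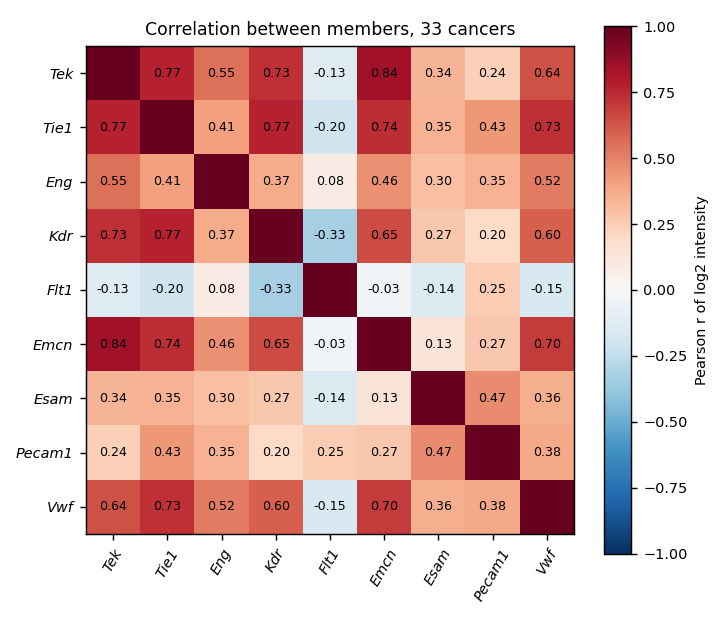
Pearson r of log2 level between each pair of markers across the 33 cancers, coloured from -1 (blue) to 1 (red). The strongest pair is Tek with Emcn at 0.84, and the row of Flt1 lies between -0.33 and 0.25.

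The closest pair was Tek and Emcn, with r = 0.84 and rho = 0.78 (permutation p = 1e-05 each, the smallest that the resamples can give; adjusted p = 7.2e-05). Without the 2 cancers farthest from the median of Tek, r was 0.78. Within groups, on residuals from the group means, r was 0.89, and without MNU nonmutated 4 it was 0.81. The receptors Tie1 and Kdr had r = 0.77 and rho = 0.73 (permutation adjusted p = 7.2e-05 each), with r of 0.75 without the 2 farthest cancers and 0.80 within groups. Tek and Tie1 also had r = 0.77, with rho = 0.72 (permutation adjusted p = 7.2e-05 for r), r of 0.73 without the 2 farthest cancers and 0.79 within groups.

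Kdr and Flt1, the pair that binds VEGF, had r = -0.33 (permutation p = 0.0649, adjusted p = 0.102) and rho = -0.40 (permutation p = 0.0222, adjusted p = 0.038). The r was -0.33 without the 2 cancers farthest from the median of Kdr and -0.26 without MNU nonmutated 4. Thus only the rank correlation passed. Pecam1 and Kdr had r = 0.20 over 33 cancers (permutation adjusted p = 0.314), and 0.42 without MNU nonmutated 4. Esam and Pecam1 had r = 0.47 and rho = 0.52 (permutation adjusted p = 0.0154 and 0.00629), but r was 0.32 without the 2 cancers farthest from the median of Esam. The arrays share scaling and the makeup of each tumour, and these correlations do not separate such sources.

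The genes outside the member list most like the members, by mean Pearson r with the 9 members over the 33 cancers, were Cyyr1 (0.57), Mecom (0.52), Ptprb (0.52), Tnfrsf26 (0.52), Adgrf5 (0.51), S1pr1 (0.51), Adgrl4 (0.51) and Ldb2 (0.51). Ptprb, an endothelial phosphatase that acts on Tek, the sphingosine-1-phosphate receptor S1pr1 and the adhesion receptor Adgrl4 were on the list of other endothelial genes. The mean level of each of the 8 was lower in the cancers than in normal tissue, by -0.88 (Tnfrsf26) to -2.02 (Ptprb) on the log2 scale. The likeness is a description over cancers, with no test.

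Other genes of the vessel wall were compared on the same fit, where 16.3% of all genes were called lower and 18.0% higher. The lists were chosen with earlier results of these data known, so their counts are not independent support. Of 33 measured genes of a list of 36 other endothelial genes, 26 were lower and 0 higher in the cancers (limma). Their median log2 difference was -1.14. Ackr1, a chemokine-binding receptor of venules, differed by -2.71 ± 0.20 (SE, adjusted p = 2.22e-11), and the transcription factor Sox17 by -2.10 ± 0.28 (adjusted p = 1.32e-06). The adhesion molecule Icam2 differed by -1.38 ± 0.20 (adjusted p = 7.27e-06). Between 22 and 27 of the list were lower under every alternative run.

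Of 15 measured angiogenic ligands, co-receptors and related secreted factors of 20 listed, 2 were higher and 5 lower in limma. The median was -0.23, and of all genes 18.0% were called higher and 16.3% lower. Pgf, a ligand of Flt1, averaged 7.63 ± 0.33 (SD, n = 3) in log2 level in normal tissue and 9.54 ± 0.61 (n = 33) in the cancers, a rise of 1.91 ± 0.31 (SE; limma, adjusted p = 3.04e-05). The protease Adamts1 rose by 1.41 ± 0.33 (limma, adjusted p = 0.00153). Angptl4, which fat cells also secrete, differed by -3.45 ± 0.45 (limma, adjusted p = 9.78e-07) and the peptide Apln by -1.47 ± 0.38 (adjusted p = 0.00385). Vegfa, the main ligand of Kdr and Flt1, chosen here after its value was seen, differed by 0.40 ± 0.25 and did not pass (limma, adjusted p = 0.228). The count of lower ligands was 2 without normal tissue 1 and 3 without normal tissue 3 or with array weights.

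Beside shares of 18.0% higher and 16.3% lower over all genes, the Notch and ephrin list had 13 measured genes of 14 listed. Of these 13, 5 were higher and 0 lower (limma, median 0.65). They were the feedback regulator Nrarp (2.66 ± 0.22 SE, adjusted p = 3.64e-10), the ligands Jag1 (2.08 ± 0.23, adjusted p = 5.05e-08) and Jag2 (1.63 ± 0.25, adjusted p = 9.92e-06), the target Hes1 (1.52 ± 0.18, adjusted p = 2.47e-07) and the receptor Notch1 (1.01 ± 0.17, adjusted p = 4.15e-05). Notch1, the fifth by adjusted p, was named after its value was seen. Of the 8 that did not pass, Notch4 differed by 0.92 ± 0.51 (SE, adjusted p = 0.161) and Dll4 by 0.20 ± 0.19 (adjusted p = 0.432), both also chosen after their values were seen.

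Pericytes and smooth muscle cells surround the endothelial tube. The counts in this paragraph stand beside 16.3% of all genes called lower and 18.0% higher. Of 12 measured pericyte and vascular smooth muscle genes of 13 listed, 3 were lower and 0 higher (limma, median -0.29). They were the channel subunits Abcc9 (-1.37 ± 0.26 SE, adjusted p = 0.000219) and Kcnj8 (-0.68 ± 0.18, adjusted p = 0.00424) and the peptidase Anpep (-1.47 ± 0.35, adjusted p = 0.00161). The platelet-derived growth factor receptor Pdgfrb differed by -0.57 ± 0.23 and did not pass (adjusted p = 0.0562). Of 7 measured lymphatic genes of 8 listed, 3 were lower and 1 higher (limma, median -0.63). The chemokine Ccl21 differed by -4.05 ± 0.56 (adjusted p = 2.84e-06), Mmrn1 by -1.96 ± 0.25 (adjusted p = 7.63e-07) and the transcription factor Prox1 by -0.63 ± 0.24 (adjusted p = 0.0384). Reln, a secreted glycoprotein that is also made outside lymphatic vessels, rose by 2.28 ± 0.24 (adjusted p = 3.42e-08).

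The hypoxia response list held 15 symbols, with Ca9 and Car9 naming 1 gene, and all 14 genes were measured. Of these, 4 were higher and 2 lower (limma, median 0.44), against 18.0% and 16.3% of all genes. Epas1, which encodes HIF-2alpha and is abundant in endothelium, differed by -1.37 ± 0.27 (SE, adjusted p = 0.000227), and Ndrg1 by -1.78 ± 0.27 (adjusted p = 8.65e-06). The kinase genes Pgk1 (0.63 ± 0.18, adjusted p = 0.00711) and Pdk1 (0.44 ± 0.13, adjusted p = 0.0132) were higher. The count of higher genes was 1 without normal tissue 1 and 2 without normal tissue 2 or 3.

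**Figure D5:**
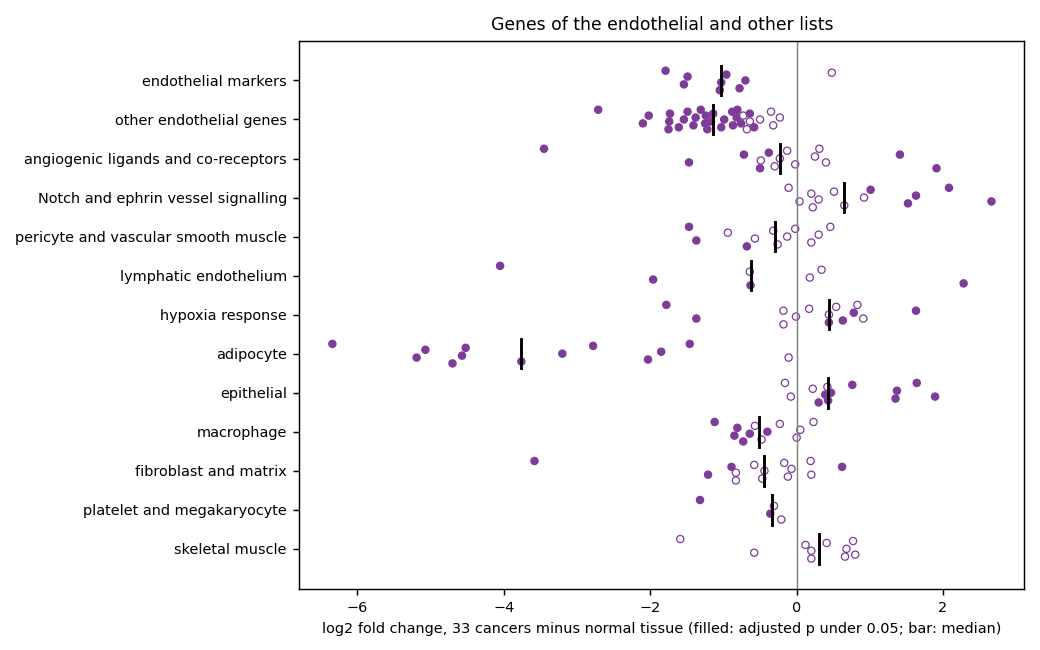
Each circle is the log2 fold change of 1 gene, 33 cancers against 3 normal tissues, by gene list, filled where the limma adjusted p was under 0.05. Black bars are list medians, at -1.03 for the endothelial markers, -1.14 for the other endothelial genes and -3.76 for the adipocyte genes.

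Markers of other cell types moved with the same comparison, and their part in the lower endothelial markers was not tested. Shares over all genes were 16.3% lower and 18.0% higher. Of 13 adipocyte genes, 12 were lower (limma, median -3.76). Their mean log2 level was 7.46 to 8.84 in the cancers and 11.72, 11.14 and 11.61 in the normal tissues, with none listed at 0. The members' own mean log2 level was 8.17 to 9.46 in the cancers (median 8.79) and 10.03, 9.54 and 9.74 in the normal tissues. The smallest adjusted p-values of that list in limma were those of the fat droplet gene Cidec (-5.07 ± 0.18 SE, adjusted p = 6.34e-19) and, at 5.44e-17 each, the droplet gene Plin1 (-4.57 ± 0.20), the hormone gene Adipoq (-4.52 ± 0.19) and the glycerol channel Aqp7 (-2.78 ± 0.12). Of 13 epithelial genes, 9 were higher and 0 lower (limma, median 0.43), with a list mean of 11.81 to 12.37 in the cancers and 11.48, 11.17 and 11.64 in normal tissue.

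The counts that follow stand beside 16.3% of all genes called lower and 18.0% higher, and none was tested against those shares. Of 12 macrophage genes 6 were lower (limma, median -0.52), with list means of 8.80 to 11.03 in the cancers and 10.49, 10.08 and 10.28 in normal tissue. Of 14 fibroblast and matrix genes 3 were lower and 1 higher (median -0.45), with list means of 9.06 to 11.86 in the cancers and 11.90, 11.71 and 11.80 in normal tissue. Platelets also carry Vwf and Pecam1. Of 4 measured platelet genes of 10 listed, 2 were lower, Pf4 (-1.32 ± 0.30 SE, limma adjusted p = 0.00125) and Treml1 (-0.36 ± 0.12, adjusted p = 0.0233). None of 10 skeletal muscle genes was called. Leaving out 1 normal tissue lowered some of these counts, to between 1 and 3 for macrophage genes, 4 or 5 for epithelial genes (normal tissue 1 or 2), and 1 for the fibroblast genes that were lower (normal tissue 1 or 2) and for platelet genes. No gene of these lists was called by H-ras status or by the F test over the nonmutated groups. Of all genes, limma called 0% by H-ras status and 0.00849% by the F test, so this absence does not set the lists apart.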

How the data were processed

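Per the labels, total RNA (8 µg) from each sample was labelled with biotin and hybridised to 1 single-colour array. The deposited table holds 1 linear intensity per probe set and array. The mean without the outer 2% of values was 500.1 on every array, so the authors had scaled each array as a whole. The sources used here do not name how probes were summarised. Array medians ran from 161.4 to 222.7, and precision rests on the number of arrays.

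Of 31099 probe sets, 20832 carried 1 symbol, 436 several and 9831 none in the platform annotation, and 20764 of the first had a gene identifier in RefSeq. Intensities were used as log2(intensity + 42.8), the 20th percentile. Probe sets above 125.8 (the 40th percentile) on at least 3 arrays were kept, and the brightest per symbol represented the gene. A limma 3.58.1 model (R 4.3.3) with 10 group means used all 36 arrays, and p-values were adjusted over 11772 genes. The single PhIP mutated cancer entered only the mean of the cancers. Permutation tests used scipy 1.17.1 and numpy 2.4.6. The fit was tested on simulated data.

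The members and lists were chosen with earlier results of these data known. The genes named are the members, up to 4 genes per list with the smallest adjusted p, up to 3 members with the smallest p where none was called, and the 8 genes most correlated with the members; genes named outside this rule are marked in the text as chosen after their values were seen. Alternatives were other added constants, no filter, quantile normalization, the mean of probe sets, other variance models, array weights, RNA quality, a replicate block, group weights, fewer groups and each array left out. No 2 arrays were identical (highest correlation 0.984). The labels give no batch.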

Additional observations from a re-analysis of the deposited data

Results flagged for a closer look

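In 54 sets of a member and a group of 4 or 5 cancers, a high or low cancer was set against the rest of its group by Dixon's 95% limit, which chance passes in about 1 of 20 groups. In 3 sets a cancer stood apart. Emcn, the capillary and venous sialomucin, was at a log2 level of 8.80 in radiation 4, with the other 3 radiation cancers at 8.20 to 8.25. Kdr, the main VEGF receptor, was at 9.69 in MNU mutated 5, with the other 4 at 8.65 to 8.95. Vwf, the clotting protein, was at 7.92 in radiation plus MNU mutated 3, with the other 4 at 8.57 to 8.78.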

How the results depend on the processing

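The count of members lower in the 33 cancers was 7 or 8 under every alternative run, and 0 were higher. Tek, Tie1, Eng, Emcn, Esam and Kdr kept their direction and their call in all 46 alternatives each. Pecam1 lost its call in 1 of 46 and Vwf in 4. The total over the 8 groups was 40 to 60 of 72. In the main fit, where it was 52, 8.26% to 13.9% of all genes were called lower by group. Shares of all genes under the alternatives are not given here. With only the groups compared in the fit, the count was 4 in MNU nonmutated and 3 in radiation plus MNU nonmutated cancers. With 1 array left out, the count ran from 4 to 8 in PhIP nonmutated, 4 to 7 in radiation plus PhIP and 2 to 6 in radiation plus MNU nonmutated cancers. The number of members whose change differed from that of Pecam1 was 4 with the constant at the 40th percentile and 0 to 4 with 1 array left out. Esam against Pecam1 ran from -0.44 to 0.12 and Vwf against Pecam1 from -0.41 to 0.40 with 1 array left out. The other values against Pecam1 kept their sign in all 40 alternatives, over -0.99 to -0.32 for Eng, -1.09 to -0.46 for Emcn, -0.44 to -0.08 for Tie1, -0.61 to -0.02 for Kdr, -1.33 to -0.68 for Tek and 0.96 to 1.74 for Flt1. The cause of these shifts was not tested. Deviations of same-numbered arrays had a mean correlation of 0, from -0.498 to 0.394 over 122 pairs. For arrays with different numbers the mean was 0.001 over 420 pairs. These means show no pairing by replicate number, but cannot settle whether samples were handled in pairs. With the replicate block 8 members were lower in the 33 cancers, with every call there as before, and 58 of the 72 pairs of a member and a group were lower against 52 without it. The filter does not alter the values set against Pecam1, and fits of the 33 cancers already use every group, so those alternatives gave no further value. Levels near the added constant, as for the second Kdr probe set, cannot be read.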
